A study of Homo sapiens with 16 samples.

Results

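EOMES, TBR1, FEZF2, BCL11B, CUX1, CUX2, POU3F2 and POU3F3 are transcription factors of the developing cortex. They are commonly read as labels of intermediate progenitors and of deep and upper layer neurons. FEZF1, the close relative of FEZF2, is grouped with the deep layer factors here. These 9 genes were picked by name from the 57736 genes of the count table, and all 9 passed the filter on low counts that left 24249 genes for testing. They were followed by RNA-seq in H9, an established human embryonic stem cell line, at the undifferentiated stage (D0) and after 12, 30 and 70 days of neural differentiation (D12, D30 and D70), which was started by blocking both SMAD branches with LDN193189 and SB431542. Treated cultures received 40 µM Thiamet-G (TMG), which blocks the enzyme that removes O-linked N-acetylglucosamine from proteins (O-GlcNAcase), both before and throughout differentiation, and control cultures received its solvent DMSO. All 8 groups hold 2 libraries described by the study as biological replicates, so p-values here measure the spread between those cultures of 1 cell line. The libraries held 10334908 to 19836878 estimated counts on genes.

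Excitatory cortical neurons arise from PAX6-positive progenitors, partly through intermediate progenitors that switch on EOMES, and newborn neurons then turn on TBR1. Deep layer neurons are born first, with TBR1 in layer 6 and with FEZF2 acting upstream of BCL11B in corticospinal neurons of layer 5, and upper layer neurons that use CUX1, CUX2, POU3F2 and POU3F3 are born later. None of these factors is restricted to cortical neurons: EOMES also acts in early mesendoderm, BCL11B in T cells and skin, CUX1 in nearly every tissue, FEZF1 in the hypothalamus and olfactory system, and the POU3F factors in neural progenitors.

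In 8 of the 16 libraries the treatment tag named the other arm than the title, because the tag followed the replicate number, with every replicate 1 tagged control and every replicate 2 tagged TMG. Groups follow the titles here, which match the column names of the count table, and every direction given for TMG rests on that choice. D70 libraries stood apart. D70 TMG replicate 2 had 2.5 CPM (estimated counts scaled to library totals corrected by TMM) of the progenitor gene PAX6, against 306 to 587 CPM in the other D70 libraries. It had 1.29 CPM of the neuronal gene STMN2. Summed over 10 dorsal forebrain progenitor genes, PAX6 among them, it held 400 CPM, against 700 to 905 CPM in the other D70 libraries. For 11 pan-neuronal genes the sum in that library was 231 CPM, against 622 to 1298 CPM. The summed level of 8 mesenchyme genes (collagens, DCN, LUM, TWIST1, TWIST2 and PDGFRB) was 59061 CPM in that library, 45215 CPM in D70 control replicate 2 and 29560 CPM in D30 TMG replicate 2, and 168 to 7590 CPM in the other 13 libraries. D70 control replicate 2 also had 95.9 CPM of the eye field gene RAX and 301 CPM of RORB, against at most 7.91 and 31.2 CPM in the other D70 libraries. Several values of single factors whose call or direction depends on these 3 libraries are therefore also given without them, but not all. The fit of 13 libraries used for this was added after the levels had been seen. In it a group left with 1 library is assumed to vary like the others.

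The stages were recognisable, with POU5F1 at 824 to 893 CPM on D0 and at most 9.13 CPM later, and PAX6 at 304 to 585 CPM on D12. LMX1A, a gene of the cortical hem, roof plate and midbrain floor, was at 141 to 265 CPM on D12. NEUROD6, a gene of postmitotic cortical excitatory neurons, was at 0 to 0.583 CPM up to D30 except in D30 TMG replicate 2 with 11.7 CPM. The summed level of the 12 genes of the intermediate progenitor and glutamatergic lineage, NEUROD6 among them, was 59.4 to 132 CPM on D12 and 24.8 to 185 CPM on D30. A level in these bulk samples cannot separate fewer expressing cells from less RNA per cell.

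The 9 factors differed widely in level and in range. On a scale corrected for length (mean CPM per kb of exon), CUX1 stood highest on D0 in control cells at 9.19, followed by FEZF1 at 3.94, CUX2 at 3.41, FEZF2 at 2.71, POU3F2 at 2.25, BCL11B at 1.67, EOMES at 1.49, POU3F3 at 1.41 and TBR1 at 0.285. On D30 in control cells FEZF1 led at 43.3 and FEZF2 was next at 29.1, ahead of CUX1 at 9.44 and POU3F3 at 5.53, and EOMES at 0.353 was lowest. Between the lowest and the highest library, leaving out D70 TMG replicate 2, TBR1 spanned 199-fold, FEZF1 97.6-fold, BCL11B 57.9-fold, FEZF2 48.4-fold and EOMES 31.2-fold, whereas POU3F3 spanned 10.8-fold, POU3F2 10.2-fold, CUX2 2.28-fold and CUX1 1.92-fold. In these 15 libraries the upper layer factors covered a narrower range than the intermediate progenitor and deep layer factors, which does not hold with D70 TMG replicate 2, since CUX2 then ran from 0.0925 to 44.5 CPM and BCL11B from 1.37 to 131 CPM.

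**Figure D1:**
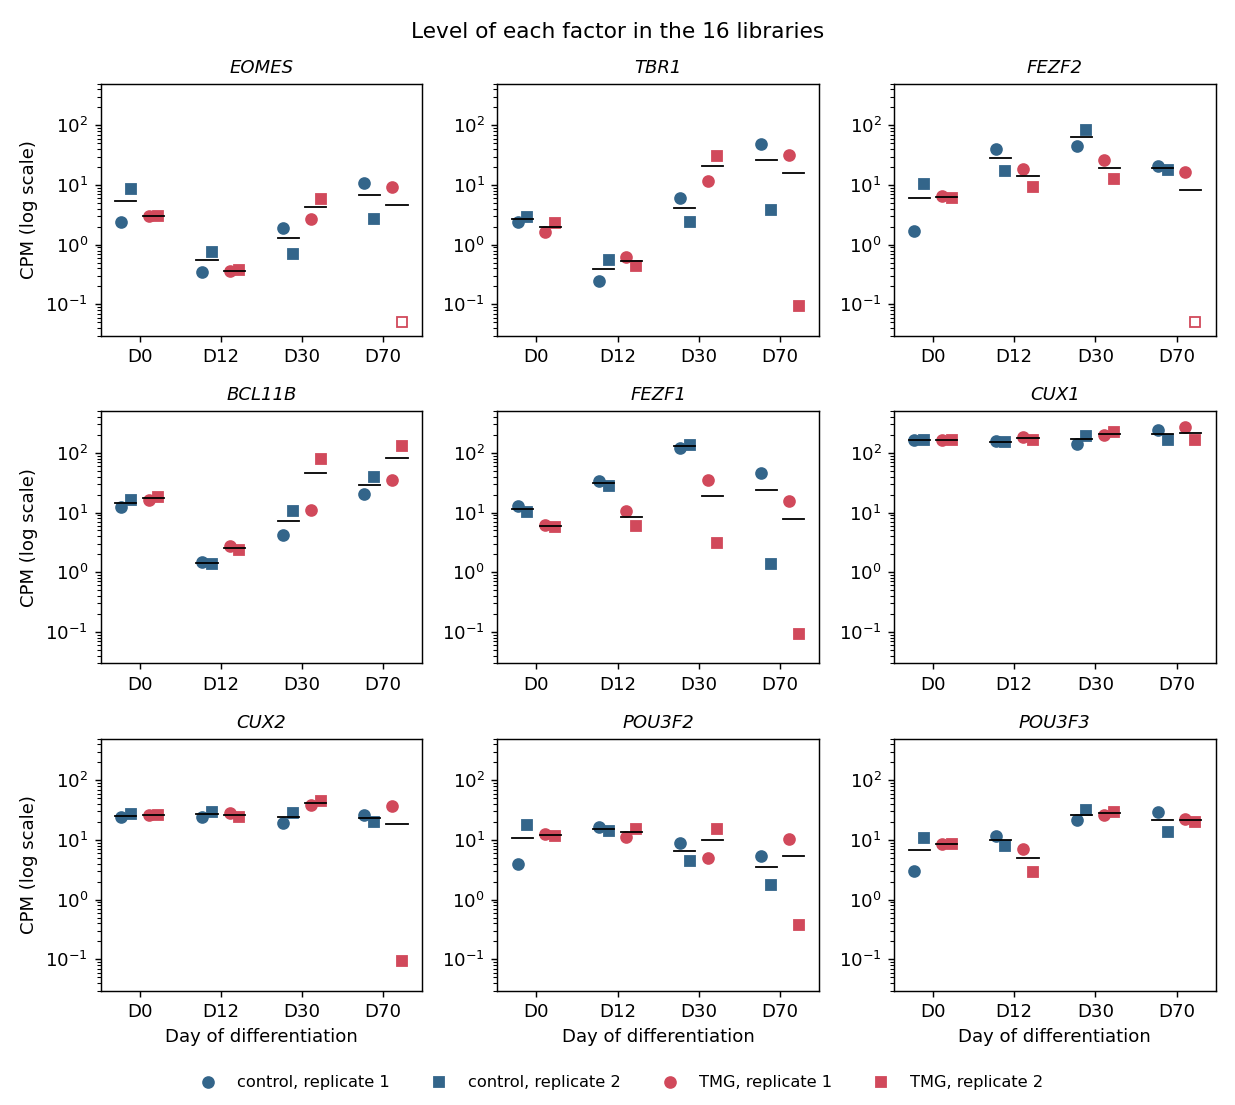
CPM of each factor (log axis) by day of differentiation in the 16 libraries, with blue for control, red for TMG, circles for replicate 1, squares for replicate 2 and a black line for the mean of the 2 libraries of a group. Open squares at the bottom mark the libraries with 0 counts. CUX1 stays between 142 and 274 CPM, while D70 TMG replicate 2 falls far below its partner for EOMES, TBR1, FEZF2, FEZF1, CUX2 and POU3F2.

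EOMES (ENSG00000163508; chr3:27757440-27764202, minus strand, GRCh37), the T-box factor of intermediate progenitors, was already present on D0, before neural induction. Its level was 2.41 and 8.46 CPM in the D0 control libraries and 3.02 and 2.99 CPM with TMG. It was at 0.344 and 0.766 CPM on D12 in control cells and at 0.364 and 0.373 CPM with TMG, the lowest stage in both arms. On D30 it read 1.88 and 0.703 CPM in control cells and 2.72 and 5.77 CPM with TMG, so that both treated libraries lay above both controls. On D70 it read 10.7 and 2.74 CPM in control cells and 9.17 and 0 CPM with TMG, with 1 treated library between the controls and the other below both. From D0 to D12 in control cells the log2 fold change was -3.28 (SE 1.46, edgeR quasi-likelihood adjusted p = 0.15) and from D12 to D70 it was 3.59 (SE 1.48, adjusted p = 0.137), neither past the 5% false discovery rate. In the fit of 13 libraries both passed, with -3.26 (SE 0.68, edgeR adjusted p = 0.00594) and 4.28 (SE 0.74, adjusted p = 0.00325), where 33.9% and 26% of all genes were called. The fall to D12 rested in part on D0 control replicate 2, being -2.11 without it (edgeR adjusted p = 0.479). The step from D30 to D70 was 2.42 (SE 1.40, edgeR adjusted p = 0.379), and 3.12 in the fit of 13 libraries (SE 0.71, adjusted p = 0.0267), where 10.1% of genes were called. Both the D12 to D70 and the D30 to D70 values of the 13 libraries rested on D70 control replicate 1, the lone D70 control in that fit, and without it in the fit of 16 they were 2.29 and 1.12 (edgeR adjusted p = 0.439 and 0.75). The summed level of 8 mesendoderm genes was 2.22 and 12.1 CPM in the D0 controls and 5.15 and 5.36 CPM with TMG. It was highest in D0 control replicate 2, also the D0 library with most EOMES, and TBXT was at 1.68 CPM there. That library also led D0 in each other gene list described below except the stem cell and mesenchyme genes. For dorsal forebrain progenitor genes it held 525 CPM, against 317 to 414 CPM in the other D0 libraries. The part of mesendoderm cells in the D0 level of EOMES was not tested.

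TBR1 (ENSG00000136535; chr2:162272808-162282381, plus strand, GRCh37), the T-box factor of newborn excitatory and layer 6 neurons, had levels like those of EOMES over a wider range. It read 2.41 and 2.94 CPM in D0 control cells, 0.246 and 0.547 CPM on D12, 6.01 and 2.36 CPM on D30 and 49.0 and 3.86 CPM on D70. With TMG it read 1.65 and 2.32 CPM on D0, 0.623 and 0.435 CPM on D12, 11.5 and 30.2 CPM on D30 and 31.7 and 0.0925 CPM on D70. Thus TMG libraries lay below the controls on D0 and above them on D30, while on D12 and D70 the arms overlapped. In control cells the log2 fold change from D0 to D12 was -2.74 (SE 1.70, edgeR adjusted p = 0.298). From D12 to D30 it was 3.37 (SE 1.72, adjusted p = 0.299), and neither passed. Both passed in the fit of 13 libraries (edgeR adjusted p = 0.00493 and 0.00398), where 33.9% and 17.6% of genes were called. Over the alternatives their adjusted p reached 0.603 and 0.649. From D12 to D70 in control cells the log2 fold change was 6.04 (SE 1.85, edgeR adjusted p = 0.06), which did not pass, and 6.95 in the fit of 13 libraries (SE 0.57, adjusted p = 8.69e-05), where 26% of genes were called. DESeq2 on 16 libraries called this step (adjusted p = 0.000348; 18.7% of genes called), as it did for EOMES (adjusted p = 0.0401), but without D70 control replicate 1 it was 3.27 for TBR1 (edgeR adjusted p = 0.294). The step from D30 to D70 rested on D70 control replicate 1: it was 2.68 with both controls (SE 1.53, edgeR adjusted p = 0.375; 0.384% of genes were called in that step) and -0.10 without that library. In the fit of 13 libraries, where that library stands alone for D70 control cells, the step was 3.58 (SE 0.47, edgeR adjusted p = 0.00334; 10.1% of genes called). With TMG the step from D12 to D30 was 5.27 (SE 1.78, edgeR adjusted p = 0.211), where 0.511% of genes were called. DESeq2 on the same libraries put that step at an adjusted p of 0.00621, beside 4.78% of genes called. Over the alternatives its adjusted p reached 0.648. In the fit of 13 libraries, with D30 TMG replicate 1 as the lone treated D30 library, the step was 4.40. TBR1 shares 385 exon bases with SLC4A10 on the same strand, so counts in that stretch could be assigned to either gene.

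Over the 16 libraries EOMES and TBR1 had a Pearson r of 0.87 in log2 CPM, the highest of the 36 pairs among the 9 factors, and 0.84 without D70 TMG replicate 2. The 16 points share stages of 1 cell line, so this r is a description. The stretches around the starts of both genes are shown because these genes had the most similar levels; RefSeq held windows for 8 of the 9 factors, 11 in all (GRCh38.p14, from 250 bases before the start to 50 bases after it, read on the strand of the gene). Capitals mark E-boxes of the form CAGNTG (where N is any base), CCAAT boxes and the homeodomain core TAATTA on either strand. Other forms of E-box were not searched. The T-box motif AGGTGT and the octamer ATGCAAAT were searched as well and found in neither window.
EOMES, chr3:27722274-27722573: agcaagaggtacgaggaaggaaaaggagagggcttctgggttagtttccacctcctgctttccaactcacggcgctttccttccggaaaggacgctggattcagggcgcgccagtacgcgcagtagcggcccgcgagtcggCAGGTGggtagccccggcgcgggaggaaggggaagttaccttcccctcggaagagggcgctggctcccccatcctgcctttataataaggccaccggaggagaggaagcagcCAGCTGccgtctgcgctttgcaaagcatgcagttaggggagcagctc
TBR1, chr2:161416047-161416346: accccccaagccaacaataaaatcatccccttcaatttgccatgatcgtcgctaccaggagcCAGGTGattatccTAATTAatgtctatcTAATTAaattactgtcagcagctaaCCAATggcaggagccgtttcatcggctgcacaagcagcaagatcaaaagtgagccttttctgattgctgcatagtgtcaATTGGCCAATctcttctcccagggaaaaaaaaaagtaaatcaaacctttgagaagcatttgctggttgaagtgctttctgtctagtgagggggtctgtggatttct
The EOMES window had 61.7% GC, a CpG ratio (observed over expected) of 0.74 and 2 E-boxes. The TBR1 window had 43.3% GC, lower than in all but 17.4% of the 35116 RefSeq windows of this length, a CpG ratio of 0.29, 2 copies of TAATTA, 3 CCAAT boxes, of which the last 2 adjoin each other on opposite strands, and 1 E-box. TAATTA occurred in 4.8% of all windows, CCAAT in 34.6% and CAGNTG in 49.9%, and a match is a stretch of letters, not a site shown to be bound.

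FEZF2 (ENSG00000153266; chr3:62355356-62359999, minus strand, GRCh37), the zinc finger factor of forebrain progenitors and subcerebral projection neurons, was highest on D30 in control cells. It read 1.73 and 10.4 CPM on D0, 39.9 and 16.9 CPM on D12, 45.8 and 83.8 CPM on D30 and 20.8 and 17.9 CPM on D70. In TMG cells the levels were 6.45 and 5.98 CPM on D0, 18.9 and 9.26 CPM on D12, 26.4 and 12.6 CPM on D30, and 16.4 and 0 CPM on D70. On D30 and D70 both treated libraries were below both controls, and on D12 they overlapped. No step between stages passed in the fit of 16 libraries; D12 over D0 in control cells was 2.24 (SE 1.31, edgeR adjusted p = 0.267), and passed in the fit of 13 libraries at 2.27 (SE 0.73, adjusted p = 0.0409), where 33.9% of genes were called. It ran from 1.45 without D0 control replicate 1 to 4.03 without D0 control replicate 2, and was 1.48 without D12 control replicate 1. The TMG difference was -1.01 on D12 (SE 1.25, edgeR adjusted p = 1), -1.73 on D30 (SE 1.27, adjusted p = 0.635) and -1.23 on D70 (SE 1.27, adjusted p = 0.947). With 1 library left out, the D12 difference ran from -1.62 to -0.26 and the D30 difference from -2.36 to -1.23. The D70 difference was -0.24 without D70 TMG replicate 2. It was -11.21 without D70 TMG replicate 1, which leaves the treated library at 0 CPM, so its size rested on which treated library was kept.

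FEZF1 (ENSG00000128610; chr7:121941357-121950745, minus strand, GRCh37), the close relative of FEZF2 that acts in forebrain patterning and olfactory development, had the most even pattern of lower values with TMG. In control cells it read 13 and 10.2 CPM on D0, 34.3 and 27.4 CPM on D12, 122 and 134 CPM on D30 and 46.7 and 1.37 CPM on D70. Treated libraries held 6.11 and 5.62 CPM on D0, 10.8 and 6.03 CPM on D12, 35.5 and 3.03 CPM on D30 and 15.4 and 0.0925 CPM on D70. Both treated libraries were below both controls on D0, D12 and D30, and on D70 the arms overlapped. In control cells the steps between neighbouring stages were 1.41, 2.05 and -2.40 (edgeR adjusted p = 0.555, 0.482 and 0.424). In the fit of 13 libraries the steps to D12 and to D30 passed at 1.43 and 2.07 (adjusted p = 0.00281 and 0.00133), where 33.9% and 17.6% of genes were called. The step to D70 was -1.46 in that fit, with D70 control replicate 1 as the lone D70 control. Without that library in the fit of 16 it was -6.53. The TMG difference was -0.98 on D0 (SE 1.51), -1.87 on D12 (SE 1.52), -2.73 on D30 (SE 1.56) and -1.63 on D70 (SE 1.52), with edgeR adjusted p-values of 1, 1, 0.521 and 0.946. Without the 3 mesenchyme-rich libraries the differences were -0.97, -1.88, -1.88 and -1.59, and none passed after adjustment. In that fit D30 TMG and both D70 groups held 1 library each, so those groups add no spread of their own. The D70 difference rested on D70 control replicate 1, being 2.51 without that library and -2.58 without D70 control replicate 2. DESeq2 on the 4 D12 libraries alone called FEZF1 lower (log2 fold change -1.88, adjusted p = 0.000549), where it called 0.497% of genes, and over all alternatives the D12 adjusted p ran from there to 1.

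FEZF1 shares 782 exon bases with the antisense gene FEZF1-AS1, and the NEBNext Ultra RNA kits named for these libraries do not mark strand, so reads in the shared stretch cannot be told apart. FEZF1-AS1 was the gene most like FEZF1 of 19297 genes compared (Pearson r 0.968 over 16 libraries in log2 CPM, 0.945 without D70 TMG replicate 2). It read 112 and 128 CPM in D30 control cells against 35.5 and 8.71 CPM with TMG, and 71.4 and 47.5 CPM against 19.1 and 8.76 CPM on D12. Its TMG difference was -2.09 on D12 (SE 1.51) and -2.44 on D30 (SE 1.53), with edgeR adjusted p-values of 1 and 0.569. FEZF2 was the factor with the next most similar levels to FEZF1 within the 9, at r 0.80 over 16 libraries and 0.61 without D70 TMG replicate 2. The window around the start of FEZF1 is shown because FEZF1 was the factor whose treated libraries lay below the controls at the most stages; it is the first of 2 windows listed for the gene, with the CCAAT boxes and the E-box in capitals (RefSeq, GRCh38.p14, minus strand).
FEZF1, chr7:122304701-122305000: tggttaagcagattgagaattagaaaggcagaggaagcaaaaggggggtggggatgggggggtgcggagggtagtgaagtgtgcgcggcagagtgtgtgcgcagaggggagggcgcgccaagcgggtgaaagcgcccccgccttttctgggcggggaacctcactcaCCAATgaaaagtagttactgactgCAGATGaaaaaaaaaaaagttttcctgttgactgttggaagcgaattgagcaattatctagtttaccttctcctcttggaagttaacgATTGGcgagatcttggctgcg
This window had 52.0% GC, 2 CCAAT boxes on opposite strands and 1 E-box.

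**Figure D2:**
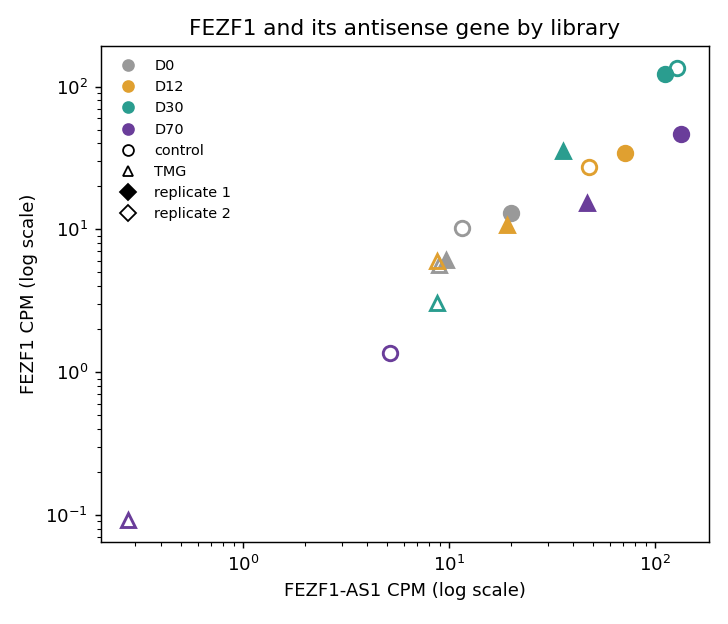
FEZF1 against FEZF1-AS1 in CPM (both log axes), with 1 point per library, colour for stage, circles for control, triangles for TMG, filled for replicate 1 and open for replicate 2. Both genes were high and low in the same libraries, from 0.0925 and 0.277 CPM in D70 TMG replicate 2 to 134 and 128 CPM in D30 control replicate 2.

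BCL11B (ENSG00000127152; chr14:99635624-99738534, minus strand, GRCh37), the zinc finger factor of layer 5 neurons also known as CTIP2, changed between stages in both arms. It fell from 12.5 and 15.9 CPM on D0 in control cells to 1.47 and 1.37 CPM on D12, a log2 fold change of -3.32 (SE 0.90, edgeR adjusted p = 0.0307; lower in 2 of 2 libraries), and 16.7% of all genes were called in that step. The fall did not pass without the filter on low counts (edgeR adjusted p = 0.104) or with any 1 of its 4 libraries left out, and over the alternatives the adjusted p ran from 0.000378 to 0.157. It then read 4.23 and 10.4 CPM on D30 and 20.1 and 38.6 CPM on D70, and the rise from D12 to D70 was 4.36 (SE 0.93, edgeR adjusted p = 0.0168), where 11.1% of genes were called. The TMG libraries read 16.3 and 18.3 CPM on D0, 2.75 and 2.36 CPM on D12, 11.2 and 79.2 CPM on D30 and 34.4 and 131 CPM on D70. Its rise from D12 to D70 with TMG was 5.01 (SE 0.94, edgeR adjusted p = 0.0171), where 5.15% of genes were called. The steps from D12 to D30 were 2.37 in control cells and 4.14 with TMG (edgeR adjusted p = 0.158 and 0.0759). In control cells this step passed in the fit of 13 libraries at 2.41 (edgeR adjusted p = 0.00428; 17.6% of genes called). With TMG it was 2.12 in that fit, where 5.51% of genes were called and D30 TMG replicate 1 was the lone treated D30 library. The D70 rises were 3.82 in control cells and 3.78 with TMG in the fit of 13 libraries, where 26% and 15.3% of genes were called. In that fit D70 control replicate 1 and D70 TMG replicate 1 each stood alone for their group, so the D70 groups add no spread of their own. Over the alternatives the adjusted p ran from 3.1e-06 to 0.126 for the control rise and from 3.98e-08 to 0.149 for the TMG rise, so that calls were lost under some of them.

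On D30 both TMG libraries held more BCL11B than both controls, but 1 of them decided the size. The difference was 2.61 on the log2 scale, or 6.11-fold (SE 0.84, edgeR unadjusted p = 0.0102, adjusted p = 0.27), and it was the only one of the 36 TMG comparisons of the 9 factors with an edgeR unadjusted p under 0.05. DESeq2 on the same 16 libraries called it (adjusted p = 0.0348), beside 2.46% of all genes, and the adjusted p ran from there to 1 over the alternatives. Without D30 TMG replicate 2 the difference was 0.60. That library and D70 TMG replicate 2, with 79.2 and 131 CPM, were the highest of the 16 in BCL11B and had 29560 and 59061 CPM of the summed mesenchyme genes, while D70 control replicate 2, with 45215 CPM of them, held 38.6 CPM of BCL11B, more than the other 13 libraries. The gene most like BCL11B was PMEPA1 (r 0.980 over 16 libraries), followed by SYNPO2 (0.960) and NLRC5 (0.958). The summed mesenchyme level on D30 was 4513 and 5283 CPM in control cells and 5664 and 29560 CPM with TMG, and the part of mesenchyme cells in the BCL11B level was not tested.

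**Figure D3:**
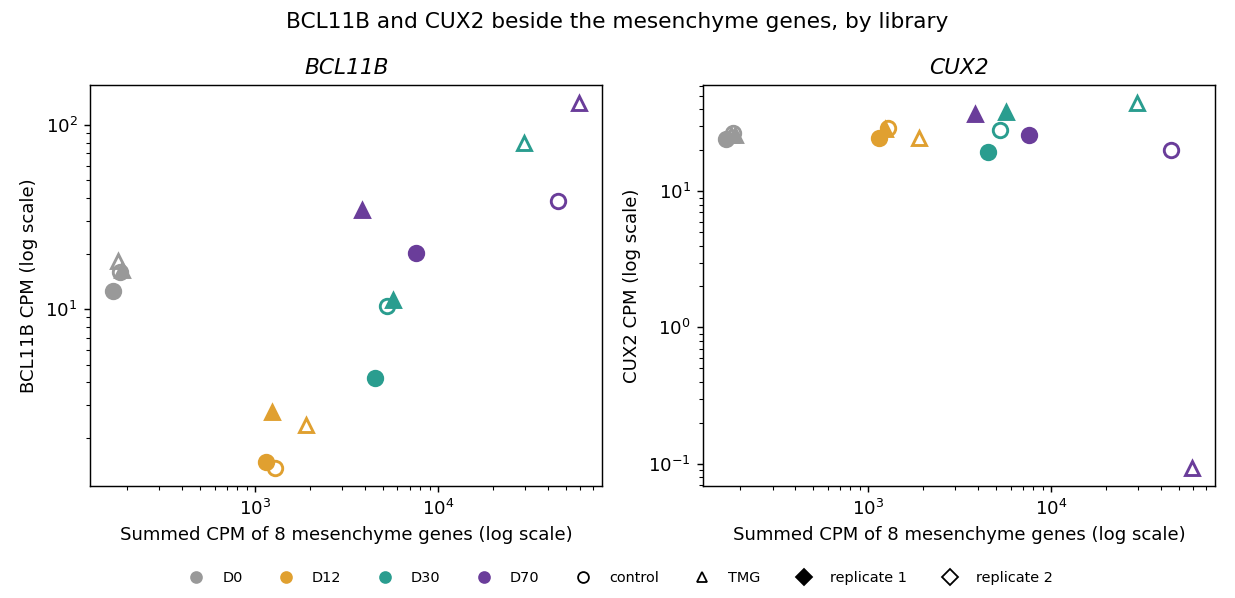
CPM of BCL11B (left) and CUX2 (right) against the summed CPM of 8 mesenchyme genes, all on log axes, with 1 point per library, colour for stage, circles for control, triangles for TMG, filled for replicate 1 and open for replicate 2. BCL11B is highest, at 131 and 79.2 CPM, in D70 and D30 TMG replicate 2, whereas CUX2 is 44.5 CPM in the D30 library and 0.0925 CPM in the D70 library.

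The levels of BCL11B and FEZF1 were negatively correlated (r -0.60 over 16 libraries, -0.43 without D70 TMG replicate 2), although both rose from D12 to D30 in control cells. The start of BCL11B is therefore shown as the counterpart of FEZF1, with its E-box of the form CAGNTG in capitals, which reads CAGTTG on the other strand (RefSeq, GRCh38.p14, minus strand).
BCL11B, chr14:99272148-99272447: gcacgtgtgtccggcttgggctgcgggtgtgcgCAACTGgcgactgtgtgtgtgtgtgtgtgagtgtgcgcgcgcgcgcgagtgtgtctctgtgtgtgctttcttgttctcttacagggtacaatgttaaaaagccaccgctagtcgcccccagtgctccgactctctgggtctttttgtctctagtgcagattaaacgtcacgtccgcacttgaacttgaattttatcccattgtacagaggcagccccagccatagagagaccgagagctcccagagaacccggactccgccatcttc
This window had 55.7% GC and a CpG ratio of 0.86, and held 1 E-box of the form CAGNTG and none of the other motifs searched.

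CUX1 (ENSG00000257923; chr7:101459184-101927250, plus strand, GRCh37), a homeodomain factor of upper layer neurons that is also found in most dividing cells, was the flattest of the 9. It read 161 and 165 CPM on D0 in control cells, 156 and 153 CPM on D12, 142 and 193 CPM on D30 and 244 and 166 CPM on D70. In treated cells it was at 167 and 162, 185 and 164, 197 and 221, and 274 and 161 CPM on the same days. Both TMG libraries lay above both controls on D12 and D30, by 0.18 (SE 0.26, edgeR adjusted p = 1) and 0.31 (SE 0.26, adjusted p = 0.68) on the log2 scale. No step between neighbouring stages passed in control cells, the largest being 0.29 from D30 to D70 (SE 0.26, edgeR adjusted p = 0.574).

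CUX2 (ENSG00000111249; chr12:111471969-111788358, plus strand, GRCh37), the paralogue of CUX1 that is more restricted to upper layer neurons and their progenitors, was already at 24.3 and 26.8 CPM in D0 control cells. It read 24.7 and 29.2 CPM on D12, 19.5 and 28.5 CPM on D30 and 26.1 and 20.0 CPM on D70, and control steps between neighbouring stages ran from -0.16 to 0.08 on the log2 scale (edgeR adjusted p = 0.955 to 0.986). Under TMG the levels were 26.0 and 25.9 CPM on D0, 28.7 and 24.7 CPM on D12, 38.6 and 44.5 CPM on D30 and 36.9 and 0.0925 CPM on D70. The 2 treated D30 libraries were above both controls (log2 fold change 0.79, SE 1.12, edgeR adjusted p = 0.844). In the fit of 13 libraries, with D30 TMG replicate 1 as the lone treated D30 library, the D30 difference was 0.64. The D70 difference turned with the choice of libraries, from -0.31 (SE 1.12, edgeR adjusted p = 0.987) to 0.51 in the fit of 13. Its closest genes over 16 libraries, KIF5C (r 0.956), SLC35F1 (0.954) and TUBB4A (0.95), were all replaced by others once D70 TMG replicate 2 was left out, with TH next at 0.881.

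POU3F2 (ENSG00000184486; chr6:99282450-99287334, plus strand, GRCh37), also known as BRN2, is a POU factor of neural progenitors and of upper layer neurons. In control cells the D0 libraries were far apart, at 3.95 and 18.0 CPM, and the first lay below both D30 controls. On D12 it read 16.7 and 14.3 CPM, above the later 8.83 and 4.42 CPM on D30 and 5.40 and 1.77 CPM on D70. With TMG the values were 12.7 and 11.8, 11.4 and 15.3, 5.05 and 15, and 10.3 and 0.37 CPM on the same days, and the arms overlapped at every stage. The lower later levels in control cells did not pass, with -1.23 from D12 to D30 (SE 1.08, edgeR adjusted p = 0.561; 3.6% of genes called) and -2.10 from D12 to D70 (SE 1.11, adjusted p = 0.234). Its closest genes were TMSB15A (r 0.904), the progenitor gene NES (0.879) and KIAA1549 (0.871) over 16 libraries.

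POU3F3 (ENSG00000198914; chr2:105469745-105475032, plus strand, GRCh37), or BRN1, the partner of POU3F2 in upper layer neurons, was higher late than early. In control cells it read 3.03 and 10.6 CPM on D0, 11.7 and 7.99 CPM on D12, 21.5 and 31.6 CPM on D30 and 29.2 and 13.8 CPM on D70. The rise from D0 was 1.97 to D30 (SE 0.58, edgeR adjusted p = 0.0256) and 1.67 to D70 (SE 0.57, adjusted p = 0.049), in steps where 30.6% and 29.8% of all genes were called. TMG libraries had 8.58 and 8.45 CPM on D0, 6.96 and 2.92 CPM on D12, 26.3 and 29.6 CPM on D30 and 22.6 and 20.1 CPM on D70, and its rise from D0 to D30 was 1.72 (SE 0.57, edgeR adjusted p = 0.0459), where 27.7% of genes were called. The TMG call was lost without the mesenchyme-rich libraries (1.62, edgeR adjusted p = 0.0732), without the filter and with any 1 of its 4 libraries left out (adjusted p up to 0.182). The control call on D30 was lost without D0 control replicate 1 or either D30 control, and without D0 control replicate 1 the control rises were 1.33 and 1.03, with adjusted p over the alternatives reaching 0.135 and 0.277. On D12 both TMG libraries were below both controls (log2 fold change -0.99, SE 0.57, edgeR adjusted p = 1). By edgeR over 16 libraries BCL11B and POU3F3 were thus the 2 factors, in each arm, with a change past the threshold between at least 1 pair of stages, as had 44.8% of all genes in control cells and 38.8% with TMG.

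Relatives and neighbours of the 9 factors were read beside them. BCL11A, the paralogue of BCL11B that is also used in deep layer neurons, was at 37.8 and 29.8 CPM on D0 in control cells, 0.639 and 2.24 CPM on D12, 7.42 and 13.6 CPM on D30 and 41.3 and 47.2 CPM on D70. Its fall from D0 to D12 was -4.56 (SE 0.79, edgeR adjusted p = 0.00493) and its rise from D12 to D70 4.94 (SE 0.80, adjusted p = 0.00572), so it changed in the same direction as BCL11B in both steps. POU3F1, a relative of POU3F2 that is high in stem cells, went from 90.1 and 108 CPM on D0 to 1.16 and 7.48 CPM on D70 in control cells (log2 fold change -4.53, SE 0.94, edgeR adjusted p = 0.00558). POU3F4 stayed at or below 1.68 CPM, TBX21, the relative of EOMES and TBR1 in T cells, at or below 0.42 CPM and PANTR1, the non-coding gene next to POU3F3, at or below 2.56 CPM.

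Among the genes with levels most like those of the other factors were MIR9-1HG (Pearson r 0.935) and MCF2 (0.929) for EOMES, and GDAP1L1 (0.951), DNAH11 (0.948) and FRMPD3 (0.936) for TBR1. For FEZF2 they were MSI1 (0.932), FAM226B (0.931) and TTYH1 (0.927), for CUX1 TENM3-AS1 (0.931), CMIP (0.919) and LMO2 (0.910), and for POU3F3 HDAC9 (0.904), IRF2BP2 (0.895) and JAZF1 (0.882); after FEZF1-AS1, DENND1A (0.942) and TUT1 (0.932) followed for FEZF1. Each r is over 16 libraries in log2 CPM among 19297 genes, and the points share stages of 1 cell line. Without D70 TMG replicate 2 the closest gene changed to MGAT2 for EOMES (0.936), LDLRAD4-AS1 for TBR1 (0.956), TTC32 for FEZF2 (0.947), CYTH2 for POU3F2 (0.854) and SMCO3 for POU3F3 (0.929), and stayed PMEPA1 for BCL11B (0.975), FEZF1-AS1 for FEZF1 and TENM3-AS1 for CUX1 (0.95).

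Whether TMG changed these factors was asked stage by stage. By edgeR over 16 libraries 0 of the 9 factors passed a 5% false discovery rate on D0, D12, D30 or D70, as did 0 of the 24249 genes tested (0%). At an unadjusted p under 0.05 the counts were 0, 0, 1 and 0 of the factors, beside 1.26%, 2.48%, 12% and 5.49% of all genes. DESeq2 over 16 libraries called 0, 0, 1 and 0 of the factors, beside 0.0206%, 0.0454%, 2.46% and 0.227% of genes, and DESeq2 on the 4 libraries of a stage called FEZF1 on D12 and TBR1 (adjusted p = 0.0155) and FEZF2 (adjusted p = 0.0135) on D30, beside 2.05% of genes on D30. Both treated libraries lay on the same side of both controls for 3 factors at D0, 4 at D12, 7 at D30 and 1 at D70, beside 36.6%, 34.3%, 44.1% and 22.1% of all genes. With library totals not corrected by TMM, CUX2 joined this count on D0 and CUX1 left it on D12, beside 35.1% and 33.4% of all genes. On D30 the 5 that were higher were EOMES, TBR1, BCL11B, CUX1 and CUX2 and the 2 that were lower were FEZF2 and FEZF1, so both directions occurred among the deep layer factors.

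**Figure D4:**
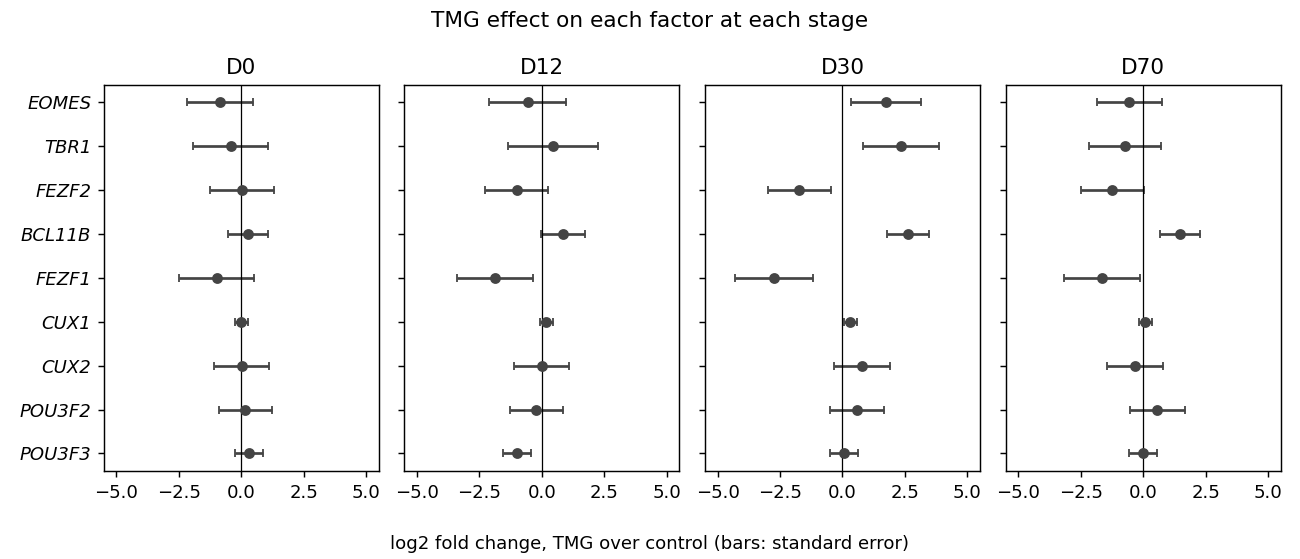
Log2 fold change of TMG over control for each factor on D0, D12, D30 and D70, from the edgeR fit of 16 libraries, with the standard error as bars and a line at 0. On D30 BCL11B, at 2.61, and TBR1, at 2.33, are farthest to the right and FEZF1, at -2.73, farthest to the left, and no value passed the adjusted threshold.

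EOMES and TBR1 had the same pattern on D30 with TMG, at 1.75 (SE 1.39, edgeR adjusted p = 0.665) and 2.33 (SE 1.52, adjusted p = 0.586). In the fit of 13 libraries, which leaves D30 TMG replicate 1 as the lone treated library, the values were 1.12 (SE 0.80, edgeR adjusted p = 0.699) and 1.46 (SE 0.49, unadjusted p = 0.0146, adjusted p = 0.359). On D70 their differences were -0.55 (SE 1.30, edgeR adjusted p = 0.978) and -0.73 (SE 1.43, adjusted p = 0.965). Without D70 TMG replicate 2 they turned to 0.44 and 0.26, and without D70 control replicate 1 they were 0.75 and 2.04. In the fit of 13 libraries they were -0.21 and -0.61, and without D70 TMG replicate 1 they were -9.69 and -8.04. The change of the TMG difference from D30 to D70 was -2.30 for EOMES (SE 1.90) and -3.06 for TBR1 (SE 2.08), and neither passed (edgeR adjusted p = 1 for both). For TBR1 it ran from -10.38 without D70 TMG replicate 1 (edgeR adjusted p = 0.0482) to -0.29 without D70 control replicate 1.

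D70 TMG replicate 2 gave the sharpest split among the factors. It held 0 counts of EOMES and of FEZF2, 1 of TBR1, 1 of FEZF1, 1 of CUX2 and 4 of POU3F2, against 116, 208, 401, 195, 467 and 130 in the replicate 1 library of the same group. EOMES, FEZF2, TBR1, FEZF1 and CUX2 lay below the floor of 3 counts per library (0.277 CPM) in replicate 2, so lower limits of their ratios are given. By the lower 95% limit (counting error only), EOMES was at least 26.4-fold and FEZF2 at least 47.7-fold lower there than in replicate 1. For TBR1, FEZF1 and CUX2 the limits were 61.1-fold, 29.6-fold and 71.3-fold. BCL11B, CUX1 and POU3F3 were still counted there, with 1414, 1740 and 217 counts against 436, 3467 and 286. After scaling, POU3F3 was 1.13-fold higher in replicate 1 than in replicate 2 (95% interval 0.94 to 1.35) and CUX1 1.7-fold higher (1.61 to 1.8), while BCL11B in replicate 1 was 0.263 times its level in replicate 2 (0.236 to 0.293). These ratios compare libraries of 1 group and carry no test of TMG.

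The other genes of the same cell types gave the following counts on D30 with TMG, and none of the 12 lists had a gene past the 5% false discovery rate in the edgeR fit of 16 libraries without a block. With the replicate number as a block, 8 of the 105 list genes tested passed in edgeR (BCL11A, DCN, ELAVL4, LMX1B, NANOG, POU5F1, TWIST1 and ZFPM2), beside 233 of all 24249 genes. DESeq2 called 13 of the 105 list genes, beside 2.46% of all genes. All 12 genes of the intermediate progenitor and glutamatergic lineage had a positive difference, with a median of 2.33 and 7 at an unadjusted p under 0.05. They were led by NHLH1 (log2 fold change 2.11, SE 0.56, edgeR adjusted p = 0.22) and INSM1 (2.40, SE 0.71, adjusted p = 0.25). Of 10 other deep layer genes 9 were positive, with a median of 1.26 and 4 under that p, led by ZFPM2 (3.69, SE 0.82, edgeR adjusted p = 0.177) and FOXP2 (3.71, SE 1.32, adjusted p = 0.31). Of 10 other upper layer genes 5 were positive, with a median of 0.34 and 1 under that p. The median over all genes tested was 0.01 and 12% of all genes were under that p. The summed lineage list read 24.8 and 40.2 CPM in the D30 controls and 75.6 and 185 CPM in TMG replicates 1 and 2. For the deep layer list the sums were 188 and 211 CPM against 237 and 408 CPM. For the upper layer list they were 400 and 396 CPM against 435 and 380 CPM. The size for the first 2 lists thus rested largely on D30 TMG replicate 2, which is rich in mesenchyme genes.

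The remaining lists read as follows on D30. All 8 mesenchyme genes were positive (median 2.55, 1 under an unadjusted p of 0.05), as were 7 of 8 stem cell genes (median 1.04, 4 under), 9 of 11 pan-neuronal genes (0.88, 3 under), 6 of 7 Cajal-Retzius genes (1.05, 2 under), 8 of 10 midbrain and hindbrain genes (1.03, 2 under) and 6 of the 9 tested ventral forebrain genes (1.95, 2 under). Of the dorsal forebrain progenitor genes 4 of 10 were positive (median -0.19), of the hypothalamus and eye field genes 3 of the 5 tested (0.74) and of the mesendoderm genes 3 of the 5 tested (1.08). The summed mesenchyme genes read 5664 CPM in D30 TMG replicate 1 and 29560 CPM in replicate 2, against 4513 and 5283 CPM in the controls. The stem cell gene POU5F1 was at 9.13 and 5.49 CPM in the D30 TMG libraries against 0.094 and 0.401 CPM in the controls. On D70, the genes of lowest unadjusted p in the 3 lists nearest to the factors were INSM1 (1.41) and NEUROD4 (-2.55), PCP4 (-1.38) and LDB2 (-0.64), and RORB (-3.01) and LHX2 (-1.83) on the log2 scale, with edgeR adjusted p-values of 0.894 to 0.946. On D70 the medians of the intermediate progenitor, deep layer and upper layer lists were -0.02, 0.14 and 0.01, with 0, 0 and 1 gene under that p. What the shifts in mesenchyme and stem cell genes contribute to the D30 values of the 9 factors was not tested.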

How the data were processed

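RNA was sequenced from 16 H9 cultures (4 stages, control or TMG, 2 libraries per group). The authors aligned reads with Bowtie2 to hg19 and deposited RSEM (version 1.2.12) estimated counts per Ensembl gene of GRCh37, from libraries depleted of ribosomal RNA and made with a kit that does not mark strand. Groups were taken from the titles. Expected counts were rounded to whole numbers and fitted in edgeR 4.0.16 (R 4.3.3, limma 3.58.1) with TMM scaling, 1 mean per group over 16 libraries (8 residual degrees of freedom), a filter that kept 24249 genes (minimum count 10, minimum total 15), a robust quasi-likelihood fit and Benjamini-Hochberg adjustment over all genes tested within each contrast at a 5% false discovery rate. The alternatives were DESeq2 1.42.0, RLE scaling, no filter, fits of 4 libraries, a replicate block and each library left out. The scripts were tested on simulated data. The total depth per library leaves a level of 0 compatible with up to 3 counts, or 0.147 to 0.291 CPM, and this floor and the intervals given cover counting error only.

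Besides the 9 factors, genes were named by rule: for each factor the 3 genes of highest Pearson r in log2 CPM (prior count 2) among tested genes with a mean CPM of at least 1, overlapping or related genes, and, of 12 lists with 113 of 115 genes matched, the 2 genes of lowest p on D30 and D70 in the lists described. LHX1 and NEFL were not analysed here. Some genes that these rules name are not reported here. The 9 factors, the lists and the tests were chosen with earlier results of these data known. Of the table, 0 columns were left unmapped.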

Additional observations from a re-analysis of the deposited data

Results flagged for a closer look

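TBR1 was marked because its TMG difference had opposite directions at 2 stages without overlap between the arms: both treated libraries lay below both controls on D0 (1.65 and 2.32 CPM against 2.41 and 2.94 CPM) and above both on D30 (11.5 and 30.2 CPM against 6.01 and 2.36 CPM). The difference of the TMG effects, D30 minus D0, was 2.75 on the log2 scale (SE 2.13, edgeR unadjusted p = 0.223, adjusted p = 0.978), and it did not pass under any alternative, with adjusted p from 0.5 to 1. Without D30 TMG replicate 2 it was 1.89.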

How the results depend on the processing

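Of the 36 TMG differences of single factors, the sign held in all but 11 of the refits that kept every library or left out 3, and 18 differences turned when 1 library was left out. The count of factors past the 5% false discovery rate with TMG, 0 at each stage in edgeR, became 1 on D12 with DESeq2 on 4 libraries, and on D30 1 with DESeq2 on 16 libraries and 2 with DESeq2 on 4. With each library left out in turn it stayed at 0 on D0, D12 and D30. On D70 it moved without D70 TMG replicate 1, a refit that leaves 1 treated D70 library. The count with a change between at least 1 pair of stages, 2 in each arm, became 1 in each arm without the filter (20.4% of all genes in control cells and 17.6% with TMG), 4 in control cells and 3 with TMG by DESeq2 (54% and 47.1%), and 7 in control cells and 6 with TMG in the fit of 13 libraries (65.2% and 55.3%). With 1 library left out, pairs without that library keeping their calls, this count moved in both arms. It moved most without D70 TMG replicate 1, which leaves 1 treated D70 library. Over all genes on D30, edgeR called 0, DESeq2 597, edgeR without the filter 21 and the fit of 13 libraries 29. The cause of these shifts was not tested.

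In the fit with a replicate block within each stage, edgeR called 0 factors at each stage and 233 genes on D30; BCL11B on D30 was then 2.25 (adjusted p = 0.0521), and POU3F2 and POU3F3 on D70 were -0.08 and 0.07. The labels do not say whether a number marks a shared culture or day, and with 2 libraries per group the numbers were not taken as pairs. The correlation over genes of the difference between replicates 1 and 2 in the control and TMG arms was 0.045, 0.367, 0.223 and 0.607 on D0, D12, D30 and D70.

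Differences near 0 turned: POU3F3 on D70 was 0.02 with RLE scaling, 0.02 with DESeq2, and 0.02 (edgeR) and 0.00 (DESeq2) on 4 libraries, and CUX1 on D0 was -0.00 in both fits of 4 libraries. In the fit of 13 libraries CUX2 on D70 was 0.51, POU3F2 on D30 -0.40 and POU3F3 on D30 -0.05, the control steps from D30 to D70 were 0.10 for CUX2 and 0.12 for POU3F3, and the change of the BCL11B effect from D12 to D30 was -0.29. With 1 library left out the following TMG differences changed sign within their range. On D0 these were EOMES (-1.49 to 0.32), FEZF2 (-0.74 to 1.84), CUX1 (-0.00 to 0.03), CUX2 (-0.05 to 0.09), POU3F2 (-0.56 to 1.63) and POU3F3 (-0.31 to 1.49), and on D12 EOMES (-1.04 to 0.10), TBR1 (-0.04 to 1.09) and CUX2 (-0.13 to 0.11). On D30 they were POU3F2 (-0.38 to 1.18) and POU3F3 (-0.18 to 0.38), and on D70 EOMES (-9.69 to 0.75), TBR1 (-8.04 to 2.04), FEZF1 (-7.91 to 2.51), CUX1 (-0.35 to 0.42), CUX2 (-7.84 to 0.68), POU3F2 (-3.26 to 1.59) and POU3F3 (-0.43 to 0.62). Control steps did so for TBR1 (-0.10 to 3.52), CUX1 (-0.02 to 0.52), CUX2 (-0.30 to 0.24) and POU3F3 (-0.94 to 0.09) from D30 to D70, CUX1 (-0.11 to 0.32) and CUX2 (-0.46 to 0.08) from D12 to D30, and CUX2 (-0.05 to 0.19), POU3F2 (-0.22 to 1.97) and POU3F3 (-0.10 to 1.70) from D0 to D12, and the change of the BCL11B effect from D12 to D30 ran from -0.25 to 2.58. Per kb of coding sequence in place of exon the order of the factors was the same on D30 in control cells, and on D0 POU3F2 moved from rank 5 to rank 2 and FEZF2 from rank 4 to rank 7.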
